A study of Homo sapiens with 9 samples.

Results

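STAT3 and the receptor pathway that activates it were followed by bulk RNA sequencing in MDA-MB-468, an established basal, triple-negative cell line from a human breast adenocarcinoma. The pathway was taken as 10 genes, chosen by symbol from the 56809 genes of the count table. They were the gp130-type receptors IL6ST, IL6R, LIFR, OSMR and LEPR, the kinases JAK1, JAK2 and TYK2, the transcription factor STAT3, and its feedback inhibitor SOCS3. All 10 passed the filter on low counts, and 14709 genes were tested in all. Control cells received pSicoR, a lentiviral vector for hairpin RNAs, without an insert. The other groups received the same vector with a hairpin against LMO2, either shLMO2-1 or shLMO2-2. Each group had 3 libraries, each from 200000 cells. All groups share the cell line and the viral vector, and the control vector carried no hairpin, so an effect of LMO2 loss and an effect of expressing any hairpin cannot be told apart in these groups. The labels do not say whether the 3 libraries of a group came from separate cultures, so p-values measure the spread between these libraries, which may be technical.

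Cytokines of the interleukin 6 family bind receptors that signal through gp130, the protein that IL6ST encodes. JAK kinases bound to the receptor tails phosphorylate them and then STAT3, which pairs up, enters the nucleus and switches on target genes. SOCS3 is among those targets and binds gp130 and the kinases to shut the signal down. In breast cancer cells this pathway is known for its link to survival, invasion and stem-like traits. These data measure transcripts only and hold no measure of STAT3 phosphorylation, and a gene count sums the alpha and beta forms of STAT3.

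STAT factors bind a split palindrome, so the 250 bases before each RefSeq start site were read for the sequence TTCNNNGAA, which reads the same on both strands, and for the variant TTCNNNTAA on either strand. RefSeq (GRCh38.p14) gave 19 such windows for the 10 genes, and 4 of them held a match. 4 of the windows are shown: 1 each of the 3 genes that changed below, of LEPR the window it shares with LEPROT, and that of IL6ST, which held a match. They run 5′ to 3′ on the strand of the gene, with bases of a match in capitals.
IL6ST, chr5:55994964-55995213, minus strand: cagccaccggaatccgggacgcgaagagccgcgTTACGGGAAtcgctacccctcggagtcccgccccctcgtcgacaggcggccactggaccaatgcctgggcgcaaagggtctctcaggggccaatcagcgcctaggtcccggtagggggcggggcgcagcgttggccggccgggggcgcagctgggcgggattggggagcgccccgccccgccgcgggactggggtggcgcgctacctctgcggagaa
STAT3, chr17:42388443-42388692, minus strand: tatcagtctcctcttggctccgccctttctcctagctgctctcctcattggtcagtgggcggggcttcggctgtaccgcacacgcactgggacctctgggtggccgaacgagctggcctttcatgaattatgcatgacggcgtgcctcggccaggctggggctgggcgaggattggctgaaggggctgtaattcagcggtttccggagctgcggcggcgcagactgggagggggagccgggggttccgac
LEPR and LEPROT, chr1:65420418-65420667, plus strand: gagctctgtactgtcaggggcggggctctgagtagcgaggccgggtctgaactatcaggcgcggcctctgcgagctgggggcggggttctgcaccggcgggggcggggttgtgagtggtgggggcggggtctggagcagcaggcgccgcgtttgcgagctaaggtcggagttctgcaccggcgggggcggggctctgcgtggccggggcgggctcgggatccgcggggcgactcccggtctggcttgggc
TYK2, chr19:10380573-10380822, minus strand: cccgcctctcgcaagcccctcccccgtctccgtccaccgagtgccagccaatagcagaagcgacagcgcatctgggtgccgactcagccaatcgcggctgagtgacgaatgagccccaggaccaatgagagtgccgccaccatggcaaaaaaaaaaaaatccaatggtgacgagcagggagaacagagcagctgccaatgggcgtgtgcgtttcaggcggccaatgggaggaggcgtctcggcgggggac
The IL6ST window held TTACGGGAA, starting 217 bases before the start site. OSMR held TTCCAGTAA 35 bases before its start, and LIFR held TTCCTTGAA and TTCATCGAA in the windows of 2 start sites, at 165 and 182 bases. Among 35116 RefSeq windows of this length, 6.57% held TTCNNNGAA and 8.28% held TTCNNNTAA. A match describes these letters and is not a binding site, and the windows of STAT3, LEPR and TYK2 held neither. The printed LEPR window is also that of LEPROT, a neighbour that begins in the same place.

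Groups were compared with edgeR's quasi-likelihood test, with p-values adjusted by Benjamini and Hochberg's method over all genes tested, and a gene is said to pass, or to be called, at an adjusted p under 0.05. The hairpins' target was examined first. LMO2, a LIM-domain transcriptional cofactor, rested on 4, 35 and 19 counts in the controls, 2, 1 and 6 in shLMO2-1 and 1, 4 and 3 in shLMO2-2. Its log2 fold change was −2.44 (SE 0.813, adjusted p 0.0907) in shLMO2-1 and −3.02 (SE 0.819, adjusted p 0.0441) in shLMO2-2, and the mean of both passed (adjusted p 0.0216). LMO2 lay outside the filter on low counts and was kept for this test. Control replicate 1 held fewer LMO2 counts than shLMO2-1 replicate 3, and the stability of the LMO2 calls was not tested. Library totals lay between 15494486 and 23069456 counts, highest in shLMO2-2. All 9 epithelial markers examined were detected in every library. Their summed level, in counts per 1000000 of the scaled library total (CPM), was higher with the hairpins, from 14027 to 14827 in control, 16124 to 17242 in shLMO2-1 and 15605 to 17615 in shLMO2-2, and its part in the values below was not tested. EGFR was the largest part of this sum, between 4780 and 7930 CPM over the 9 libraries, so the sum does not say which markers rose. Of 3 genes for hormone receptors and HER2, PGR was at 0 in every library. ESR1 lay between 2.47 and 6.09 CPM and ERBB2 between 42.2 and 56.5. Leukocyte markers summed to between 6.05 and 9.4 CPM, with CD3E at 0, and endothelial markers to between 7.17 and 19.4 CPM. Fibroblast markers summed to between 9.78 and 17.1 CPM, with COL1A1 between 9.47 and 17.1. On the first principal component control replicate 1 lay at −42.6, beyond the other controls at −18.2 and −20.6, and it is followed below. Replicates 1 to 3 lay at −0.0825, 7 and 20.8 in shLMO2-1, and at 9.29, 15.4 and 28.9 in shLMO2-2, so replicate 1 was lowest in each group. The main test does not include the replicate number.

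Per kilobase of the longest coding transcript, STAT3 was the most abundant of the 10 transcripts in control cells, at 85.8 ± 1.91 CPM per kilobase (SD, n = 3). JAK1 followed at 60.7 ± 6.22 and TYK2 at 54.4 ± 2.3, then IL6ST at 17.8 ± 1.47 and OSMR, the oncostatin M receptor, at 9.55 ± 1.218. The next 4 lay close together: SOCS3 at 4.3 ± 0.711, LEPR at 3.55 ± 0.249, JAK2 at 2.95 ± 0.4 and LIFR, the leukaemia inhibitory factor receptor, at 2.83 ± 0.32 CPM per kilobase, and each overlapped its neighbour in this order. IL6R, the receptor chain that binds interleukin 6 itself, was lowest, at 0.248 ± 0.0658 CPM per kilobase and 20, 26 and 36 counts in the controls. The order of JAK1, TYK2 and IL6ST depended on the transcript taken as the length. With the median coding transcript they stood at 60.7, 63.7 and 62.5 CPM per kilobase, and TYK2 overlapped IL6ST and IL6ST overlapped JAK1. In both hairpins TYK2 stood above JAK1 by the longest transcript, at 61.3 against 55.8 CPM per kilobase in shLMO2-1 and 63.9 against 53.8 in shLMO2-2. STAT3 was highest and IL6R lowest by either length in all 3 groups.

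STAT3, which carries the signal from receptor to nucleus, fell in both hairpins. STAT3 occupies chromosome 17 from 42313324 to 42388568 on the minus strand (GRCh38, annotation of GENCODE 29), where no other annotated gene overlaps it. Its abundance was 442.5, 433 and 423 CPM in control replicates 1 to 3, 367, 375 and 349 in shLMO2-1, and 365, 370 and 364 in shLMO2-2. All 6 hairpin libraries lay below all 3 controls. STAT3 fell by 16.0% in shLMO2-1, a log2 fold change of −0.25 (SE 0.051, adjusted p 0.0134), and fell by 15.4% in shLMO2-2 (−0.24, SE 0.0509, adjusted p 0.0164). The mean of both hairpins was −0.25 (SE 0.0437, adjusted p 0.00537). In bulk RNA, fewer cells that express a gene and less of its RNA per cell cannot be told apart. The call in shLMO2-1 was lost without shLMO2-1 replicate 3 (−0.22, adjusted p 0.057), and that in shLMO2-2 without any of its own replicates (adjusted p 0.0506, 0.0584 and 0.0571), while the fold change stayed between −0.29 and −0.22 over all alternatives.

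**Figure D1:**
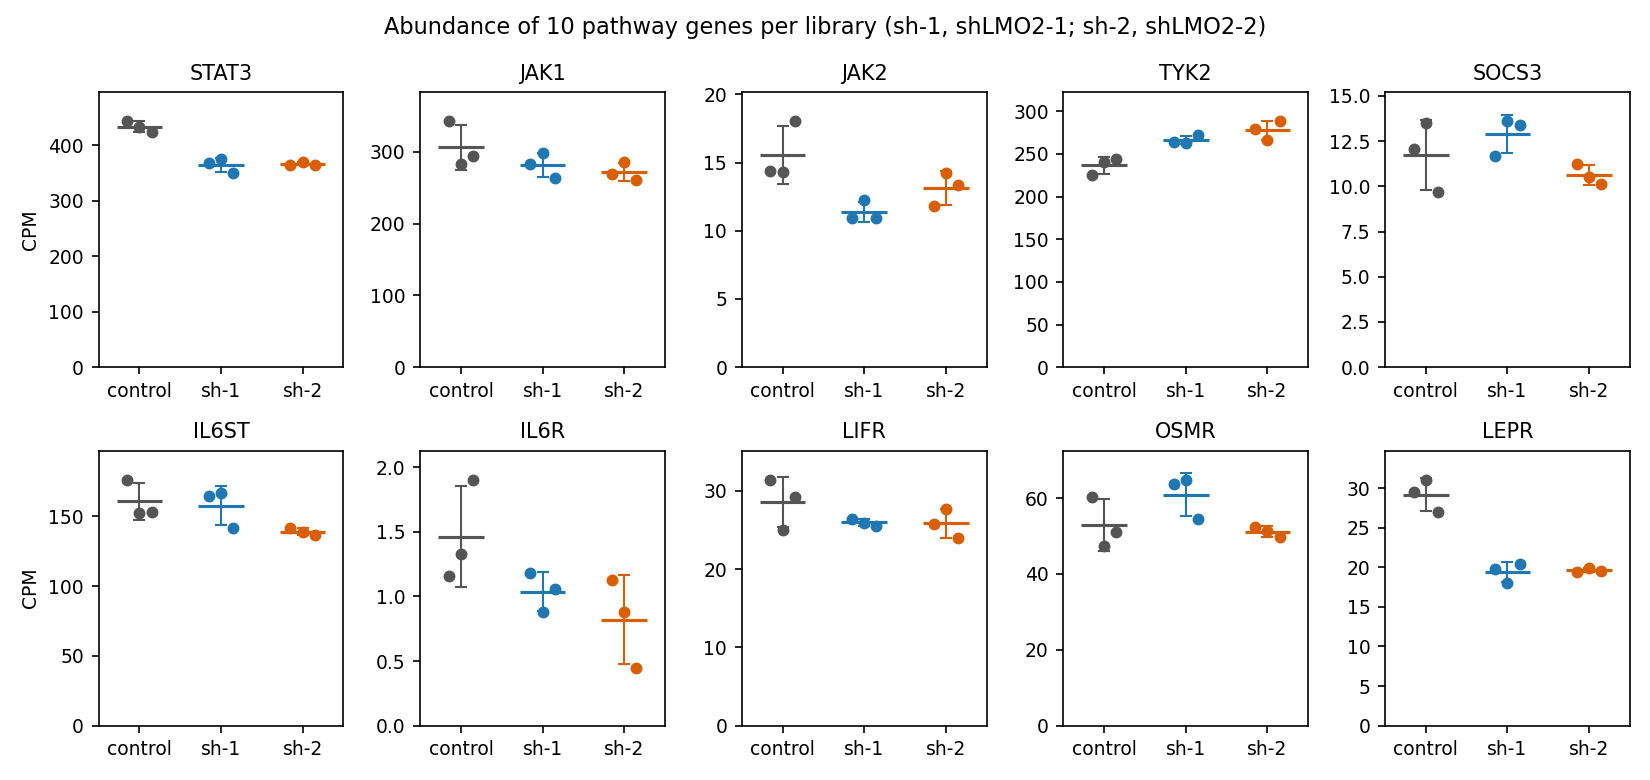
Abundance in CPM (y axis, from 0, a scale for each gene) of the 10 genes in the 9 libraries, by group (x axis). Points are libraries in replicate order, horizontal lines are means and bars are the SD of 3 libraries. STAT3 and LEPR sit lower and TYK2 higher in all 6 hairpin libraries than in the 3 controls.

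Across the 10 genes, 2 passed the test in shLMO2-1 and 3 in shLMO2-2. In shLMO2-1 both were lower, STAT3 and LEPR, where 8.42% of all genes tested were called, 3.88% lower and 4.54% higher. In shLMO2-2 the same 2 were lower and TYK2 was higher, against 8.97% of all genes called, 4.04% lower and 4.94% higher. The mean of both hairpins called these 3 genes, against 12.4% of all genes, 5.93% lower and 6.47% higher. STAT3 and LEPR were thus called lower by both hairpins, as were 2.03% of the genes tested, and none of the 10 was called higher by both, as 2.6% of the genes tested were. Both comparisons share the control libraries. The median log2 fold change of the 10 genes was −0.13 in shLMO2-1, −0.19 in shLMO2-2 and −0.14 in the mean, beside 0.00091, −0.00024 and −0.0021 over all genes. All shLMO2-1 libraries lay outside the range of the controls in 4 of the 10 genes, 3 below and 1 above, as in 28.3% of all genes (14.3% below, 14% above). All shLMO2-2 libraries did so in 6, 5 below and 1 above, as in 29.9% of all genes (14.5% below, 15.3% above). All 6 hairpin libraries did so in 4 genes, STAT3, LEPR and JAK2 below and TYK2 above, as in 16.7% of all genes (8.59% below, 8.12% above).

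**Figure D2:**
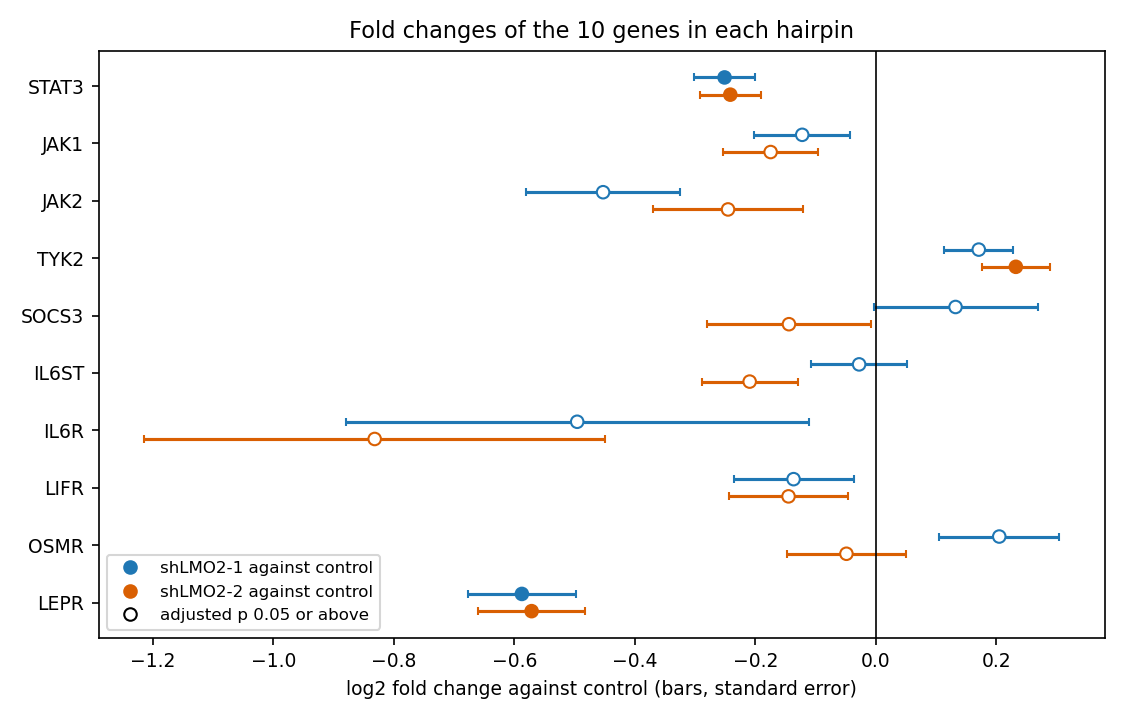
Log2 fold change against control (x axis) of the 10 genes (y axis) in shLMO2-1 and shLMO2-2, with bars for the standard error. Filled points passed an adjusted p of 0.05 and open points did not. LEPR and STAT3 are filled in both hairpins, at −0.59 and −0.57 and at −0.25 and −0.24, and TYK2 in shLMO2-2 alone, at 0.23.

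Among the receptors, LEPR, the leptin receptor, had the largest called change of the 10 genes, and no other receptor passed the test. LEPR was at 29.5, 31 and 27 CPM in control replicates 1 to 3, 19.8, 18 and 20.4 in shLMO2-1, and 19.5, 19.9 and 19.6 in shLMO2-2. Every hairpin library held less LEPR than every control, and the hairpin groups lay side by side. LEPR fell by 33.4% in shLMO2-1 (log2 fold change −0.59, SE 0.0895, adjusted p 0.00312) and fell by 32.7% in shLMO2-2 (−0.57, SE 0.0883, adjusted p 0.00345). The call held without any single library, where the fold change ran from −0.64 to −0.54 and from −0.62 to −0.52.

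LEPR (chromosome 1, 65420652–65641559, plus strand) overlaps LEPROT (chromosome 1, 65420587–65436007), which encodes a small membrane protein that lowers the amount of receptor at the cell surface. The pair begins in the same place, as the printed window shows, and 1.19% of the distinct 31-base words of LEPR transcripts also occur in LEPROT transcripts. LEPROT was at 185, 176 and 156 CPM in the controls, 168, 164 and 178 in shLMO2-1 and 171, 161.5 and 175 in shLMO2-2, so its groups overlapped. Its log2 fold change was −0.02 (SE 0.0726, adjusted p 0.911) in shLMO2-1 and −0.03 (SE 0.0724, adjusted p 0.852) in shLMO2-2. LEPR made up 13.8%, 15.01% and 14.8% of the summed CPM of both genes in the controls, and between 9.9% and 10.97% in the 6 hairpin libraries. The log2 ratio of LEPR to LEPROT was −2.56 ± 0.0767 (SD, n = 3) in control and −3.12 ± 0.0581 (SD, n = 6) in hairpin libraries, a difference of −0.56 (two-sided exact permutation p = 0.0119, the smallest that 84 regroupings can give). This ratio was chosen after the values were seen, when LEPR already separated the hairpin libraries from the controls and LEPROT did not. Its p was thus bound to be low, treats both hairpins as a single group, and adds no support to the values. Counted as a single gene, LEPR and LEPROT together changed by −0.09 and −0.10 and passed in neither hairpin (adjusted p 0.489 and 0.446). LEPROT makes up most of this sum, so a fall of LEPR could hardly show in it, and the sum does not test the LEPR call.

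**Figure D3:**
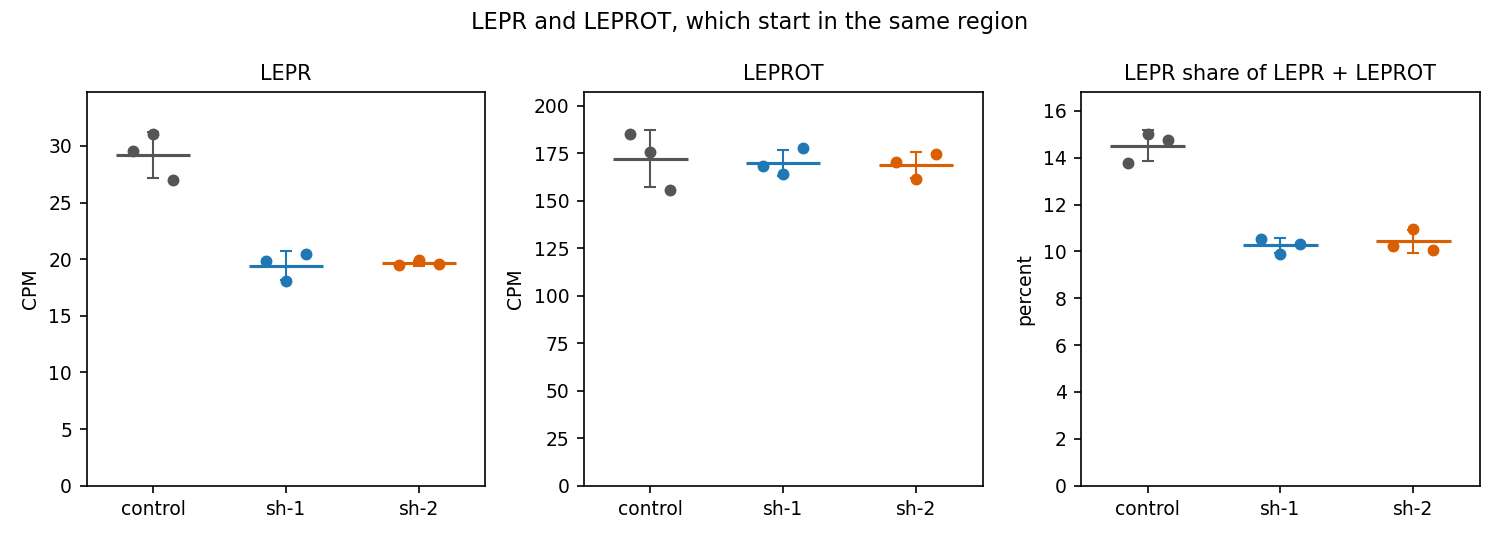
LEPR and LEPROT in CPM, and LEPR as a percentage of the sum of both (y axes, from 0), in the 9 libraries by group (x axis). Points are libraries, lines are means and bars are the SD of 3 libraries. LEPR and its share drop in all hairpin libraries, while LEPROT overlaps between the groups.

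IL6ST, which encodes gp130 itself, was at 176, 153 and 153 CPM in control replicates 1 to 3, 165, 167 and 142 in shLMO2-1, and 142, 139 and 137 in shLMO2-2. The shLMO2-2 libraries lay below all controls, as did 14.5% of all genes in that comparison, while the shLMO2-1 libraries overlapped them. Its log2 fold change was −0.03 (SE 0.0799, adjusted p 0.879) in shLMO2-1 and −0.21 (SE 0.0798, adjusted p 0.13) in shLMO2-2, and neither passed. The value in shLMO2-1 took the other sign without control replicate 1 (0.036) or without shLMO2-1 replicate 3 (0.042), and with GC and length trends removed (0.035). Genes of the GC content (36.6%) and length of IL6ST averaged −0.0647 in shLMO2-1 and −0.113 in shLMO2-2. With these trends removed the shLMO2-2 value of IL6ST was −0.09 (adjusted p 0.37). IL6ST (chromosome 5, 55935095–55994993, minus strand) is overlapped by AC008914.1 on the opposite strand, which holds 7.47% of its 31-base words, and reads of that stretch could have been assigned to either gene. Its pseudogene IL6STP1 was listed at 0 in every library.

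The other chains, which bind ligand together with gp130, did not pass in either hairpin. In GENCODE 29 each overlaps a gene on the opposite strand: LIFR (chromosome 5, 38474963–38608354, minus strand) LIFR-AS1, OSMR (chromosome 5, 38845858–38945596, plus strand) RICTOR, and IL6R (chromosome 1, 154405193–154469450, plus strand) IL6R-AS1. LIFR ranged from 25 to 31.4 CPM in control, 25.5 to 26.5 in shLMO2-1 and 24 to 27.7 in shLMO2-2, with log2 fold changes of −0.14 (SE 0.0995) and −0.14 (SE 0.0984). The LIFR values were −0.07 and −0.08 without control replicate 1 and −0.22 and −0.23 without control replicate 2, and −0.07 and −0.03 with GC and length trends removed. OSMR ranged from 47.3 to 60.4 CPM in control, 54.4 to 64.8 in shLMO2-1 and 49.6 to 52.4 in shLMO2-2. The shLMO2-1 value of OSMR was 0.20 (SE 0.0992, adjusted p 0.237) and the shLMO2-2 value −0.05 (SE 0.0989, adjusted p 0.803), which took the other sign without control replicate 1 (0.049). IL6R held 20, 26 and 36 counts in control, 21, 15 and 16 in shLMO2-1, and 26, 19 and 10 in shLMO2-2. Its fold changes of −0.50 (SE 0.384, adjusted p 0.478) and −0.83 (SE 0.382, adjusted p 0.205) had the largest errors of the 10 genes and did not pass. With libraries left out they ran from −0.64 to −0.26 and from −1.14 to −0.54.

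Of the kinases, TYK2 was called, higher in shLMO2-2, and JAK1 and JAK2 passed in neither hairpin. TYK2, a kinase used by gp130 and by interferon and interleukin 12 receptors, lies on chromosome 19 at 10350529–10380676 (minus strand) and overlaps no annotated gene. It was at 225, 241 and 243 CPM in control replicates 1 to 3, 264, 263 and 272 in shLMO2-1, and 279.5, 266 and 288 in shLMO2-2. All 6 hairpin libraries lay above all 3 controls. TYK2 was 12.6% higher in shLMO2-1 (log2 fold change 0.17, SE 0.0571, adjusted p 0.0919) and 17.5% higher in shLMO2-2 (0.23, SE 0.0569, adjusted p 0.0308), and the mean of both hairpins was 0.20 (SE 0.0497, adjusted p 0.0242).

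The TYK2 call was less stable than those of STAT3 and LEPR. TYK2 has a GC-rich transcript (61.3% GC), and genes of its GC content and length were on average higher by 0.0986 in shLMO2-1 and 0.0968 in shLMO2-2. With such trends removed the value was 0.07 (adjusted p 0.362) and 0.14 (adjusted p 0.0855), and 0.10 (adjusted p 0.106) in the mean. STAT3 (50.4% GC) was then at −0.27 and −0.23, and LEPR (36.8% GC) at −0.52 and −0.47, and both still passed in each hairpin. The shLMO2-2 call of TYK2 was also lost with only the groups compared (adjusted p 0.0753) and without control replicate 1 (0.0644) or 3 (0.0661), shLMO2-1 replicate 2 (0.0573), or shLMO2-2 replicates 1 (0.09), 2 (0.0634) or 3 (0.116). Over all 19 alternatives its value lay between 0.14 and 0.25 and its adjusted p between 0.00301 and 0.116.

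JAK2 (chromosome 9, 4984390–5128183, plus strand), a kinase of gp130 and of the leptin receptor, was at 14.4, 14.3 and 18 CPM in control replicates 1 to 3, 10.96, 12.2 and 10.9 in shLMO2-1, and 11.8, 14.2 and 13.4 in shLMO2-2. All hairpin libraries were below the lowest control, shLMO2-2 replicate 2 by the smallest margin. The log2 fold change was −0.45 (SE 0.127, adjusted p 0.0522) in shLMO2-1, −0.25 (SE 0.125, adjusted p 0.253) in shLMO2-2 and −0.35 (SE 0.108, adjusted p 0.0568) in the mean. JAK2 passed in shLMO2-1 under 7 of 19 alternatives. Among them were DESeq2 (adjusted p 0.026), the fit without control replicate 1 (−0.51, adjusted p 0.0404) and the fit with the replicate number as a block (adjusted p 0.0251). Its adjusted p ran from 0.0251 to 0.175 over all 19. Without control replicate 3, the highest library, the values were −0.33 and −0.13. Genes of its GC content and length were lower by 0.0723 and 0.103, and with these trends removed JAK2 stood at −0.39 (adjusted p 0.101) and −0.15 (adjusted p 0.545).

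JAK1 (chromosome 1, 64833229–64966504, minus strand), the kinase that gp130 signalling depends on most, was at 342, 283 and 294 CPM in control replicates 1 to 3, 283, 298 and 264 in shLMO2-1, and 268, 286 and 261 in shLMO2-2. The groups overlapped, and control replicate 1 was the highest library. The log2 fold change was −0.12 (SE 0.0795, adjusted p 0.386) in shLMO2-1 and −0.17 (SE 0.0794, adjusted p 0.2) in shLMO2-2. Without control replicate 1 the mean of both hairpins moved from −0.15 to −0.07. Control replicate 1 was the highest control in 5 of the 10 genes: STAT3, JAK1, IL6ST, LIFR and OSMR. Its part in the values of the 4 other than STAT3 was tested only by leaving it out.

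**Figure D4:**
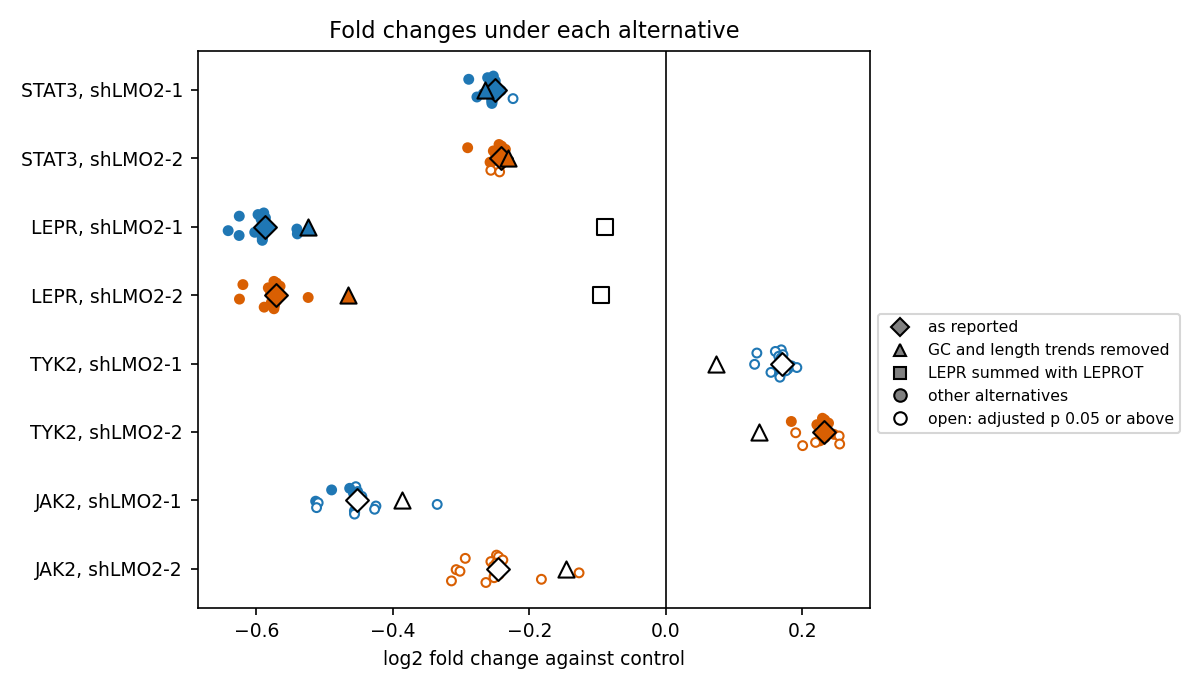
Log2 fold change against control (x axis) of STAT3, LEPR, TYK2 and JAK2 in each hairpin (y axis) as reported and under each alternative scaling, filter, test or set of libraries. Filled marks passed an adjusted p of 0.05. STAT3 stays near −0.25, and TYK2 moves to 0.07 and 0.14 with GC and length trends removed. LEPR moves to −0.09 and −0.10 when summed with LEPROT, which makes up most of that sum.

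SOCS3, the feedback inhibitor and a direct target of STAT3, did not pass in any comparison. It was at 12.05, 13.5 and 9.67 CPM in control replicates 1 to 3, 11.7, 13.6 and 13.4 in shLMO2-1, and 11.2, 10.5 and 10.1 in shLMO2-2. Both hairpin groups overlapped the controls, which held the second highest and the lowest of the 9 values. The log2 fold change was 0.13 (SE 0.136, adjusted p 0.605) in shLMO2-1 and −0.14 (SE 0.135, adjusted p 0.556) in shLMO2-2. The mean of both was −0.0059 (SE 0.117, adjusted p 0.985) and ranged from −0.13 to 0.11 as single libraries were left out. The gene lies on chromosome 17 at 78356778–78360077 and overlaps no annotated gene.

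Between the hairpins none of the 10 genes passed edgeR's test or those of DESeq2 and limma-voom. With edgeR 0.768% of all genes passed (0.422% lower, 0.347% higher). IL6ST and OSMR had an unadjusted edgeR p under 0.05, and ranked 1450 and 1027 by p among the 14709 genes tested. At least 1450 genes thus lay under that p, and these 2 are not read as a result about the 10 genes. The difference shLMO2-2 minus shLMO2-1 in STAT3 was 0.0095 on the log2 scale, with a 95% interval of −0.10 to 0.12, and in LEPR 0.02 (−0.18 to 0.21). In TYK2 it was 0.06 (−0.06 to 0.19), and in JAK2 0.21 (−0.07 to 0.49). These intervals are not adjusted for the number of genes. They lay below 0 for OSMR, at −0.25 (−0.47 to −0.04, adjusted p 0.374), and for IL6ST, at −0.18 (−0.36 to −0.0059, adjusted p 0.445). All 3 shLMO2-2 libraries lay below all shLMO2-1 libraries in OSMR and SOCS3, where 18.1% of all genes did not overlap, 9.13% with shLMO2-2 below and 8.97% above, with a SOCS3 difference of −0.28 (−0.57 to 0.02, adjusted p 0.525).

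The wider pathway was described through 5 lists. Calls in each list stand beside 8.42% of all genes called in shLMO2-1, 8.97% in shLMO2-2, 12.4% in the mean and 0.768% between the hairpins. Of 11 genes for gp130 cytokines and related ligands 5 were tested, and IL6 was called. IL6, which encodes interleukin 6, held 51, 22 and 14 counts in the controls, 16, 10 and 12 in shLMO2-1, and 13, 6 and 5 in shLMO2-2. Its log2 fold change was −1.07 (SE 0.537, adjusted p 0.255) in shLMO2-1 and −2.14 (SE 0.568, adjusted p 0.0406) in shLMO2-2. Control replicate 1 held the most, and without it the value was −1.38 and did not pass (adjusted p 0.141). The call was lost under 9 of 18 alternatives. Of 12 related receptors 5 were tested. CSF3R, the granulocyte colony-stimulating factor receptor, which also signals through STAT3, rose in both, from 3.42 to 3.59 CPM in control to between 11.01 and 12.8 in shLMO2-1 and between 15.1 and 16.6 in shLMO2-2, log2 fold changes of 1.72 (SE 0.122) and 2.16 (SE 0.12). IL11RA, which pairs with gp130 to bind interleukin 11, rose in shLMO2-2 (0.45, SE 0.116, adjusted p 0.0375), a call lost under 7 of 19 alternatives, among them the fit without control replicate 1 or 3.

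Of the other 7 JAK and STAT genes 6 were tested, and in shLMO2-2 1 was called lower and 1 higher. STAT5A, a factor of prolactin and growth hormone signalling, fell in shLMO2-2 (−0.37, SE 0.0767, adjusted p 0.0149), a call lost without shLMO2-2 replicate 2 or 3, and was at −0.10 in shLMO2-1. STAT6, the factor of interleukin 4 signalling, rose in shLMO2-2 (0.41, SE 0.0791, adjusted p 0.0111) and was at 0.25 (adjusted p 0.0824) in shLMO2-1. All hairpin libraries lay above the controls, as in 8.12% of all genes. The 15 tested negative regulators (other SOCS proteins, PIAS proteins and phosphatases, of 16 listed) gave 0 calls in all 4 comparisons with edgeR, DESeq2 and limma-voom. In so few genes 0 calls lie near the edgeR shares above and are not read as a result about these regulators. With edgeR 2 had an unadjusted p under 0.05 in each comparison with control, and the share of all genes at that p was not counted. Their median was 0.05 in shLMO2-1 and 0.01 in shLMO2-2.

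Known STAT3 target genes went both ways. Of 46 listed 35 were tested, and 5 fell and 3 rose in shLMO2-1, 4 fell and 1 rose in shLMO2-2, and 8 fell and 3 rose in the mean, beside the shares of all genes given above. The median log2 fold change was −0.0065, −0.02 and 0.03. LBP, which encodes a secreted protein that binds bacterial lipopolysaccharide, held 39, 65 and 86 counts in control, 20, 16 and 13 in shLMO2-1, and 10, 15 and 4 in shLMO2-2. LBP fell by 1.79 (SE 0.397, adjusted p 0.0206) and by 2.94 (SE 0.425, adjusted p 0.00269) on the log2 scale. The shLMO2-1 call was lost under 5 of 18 alternatives, each the fit without control replicate 2 or 3 or 1 of the shLMO2-1 replicates. SAA1, an acute-phase protein gene with a close copy in SAA2 and so uncertain, fell in shLMO2-2 (−0.84, SE 0.116, adjusted p 0.00219) and was at −0.28 (adjusted p 0.161) in shLMO2-1. IRF1, an interferon regulatory factor, fell in shLMO2-2 (−0.38, adjusted p 0.0141, lost without shLMO2-2 replicate 3), and A2M, a protease inhibitor, fell in shLMO2-1 (−0.61, adjusted p 0.0114).

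The other calls among the targets, named after their values were seen, were CCND1, BCL2L1 and LRG1, which rose in shLMO2-1, MUC1, which rose in shLMO2-2, VEGFA, NNMT and BCL6, which fell in shLMO2-1, SERPINA3, which fell in shLMO2-2, and MCL1, which fell in the mean of both hairpins alone. Of these genes BCL6 alone was followed through the alternatives, and the stability of the other calls was not tested. CCND1, the cell cycle regulator cyclin D1, was between 148 and 191 CPM in control and between 214 and 228 in shLMO2-1 (0.37, SE 0.088, adjusted p 0.0284). BCL2L1, which encodes the survival protein BCL-XL, was between 74.1 and 83.6 CPM in control and between 92.7 and 100.01 in shLMO2-1 (0.28, SE 0.0659, adjusted p 0.0271). VEGFA, which encodes an angiogenic growth factor, was at 87.9 ± 2.06 CPM in control and 67 ± 8.62 in shLMO2-1 (SD, n = 3; −0.39, SE 0.0875, edgeR adjusted p 0.0207). MCL1, which encodes another survival protein of the BCL2 family, averaged 399 ± 14.1 CPM over the controls, 349 ± 15.9 over shLMO2-1 libraries and 351 ± 17.2 over shLMO2-2 libraries (SD, n = 3 each), with a mean log2 fold change of −0.19 (SE 0.0515, edgeR adjusted p 0.0341).

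The genes whose log2 CPM followed STAT3 most closely over the 9 libraries, among 11030 genes with a mean of at least 5 CPM, were ZNF778 (Pearson's r 0.993), ETF1 (0.986) and FANCI (0.985). These values are a description, since the 9 points fall into a control and a hairpin cluster and share their libraries and scaling. ZNF778, a zinc finger gene, fell from between 61.1 and 67.8 CPM in control to between 38.3 and 46.6 in shLMO2-1 and between 40.7 and 42.8 in shLMO2-2. ETF1, a translation termination factor, was at −0.26 and −0.22, and FANCI, a DNA repair gene, at −0.39 and −0.33, each called in both hairpins. The genes closest to SOCS3 were FAM174B (0.89), IQCK (0.874) and CES1 (0.862), none of them called in a comparison.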

How the data were processed

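RNA was measured in 9 libraries of an established cell line, 3 per group, each placed in its group by the plasmid in its labels. The authors deposited a single table of estimated counts per gene symbol, of which 11.7% to 12.8% per library were not whole numbers. The submitters' processing notes name Salmon 0.12, DESeq2 1.22.2 and GRCh38.p12, with no role or order; the use of strand is not given in the sources used here, so counts of overlapping and antisense genes are uncertain. Poly(A) RNA was selected, per the labels' protocols.

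Counts were rounded and tested with edgeR 4.0.16 (R 4.3.3): TMM scaling, filterByExpr (minimum count 10, minimum total 15), LMO2 kept in any case, 14709 genes, a quasi-likelihood fit of all 9 libraries with 3 groups, and Benjamini-Hochberg adjustment over all genes, called at 0.05. The standard error was derived from the fold change and its F statistic. CPM uses TMM-scaled totals. Precision of low genes is set by their counts, which are printed; PCR copies were not marked. Alternatives were other scalings and filters, DESeq2 1.42.0, limma-voom (limma 3.58.1), only the groups compared, a replicate block, adjusted p under 0.01, and each library left out. Removal of GC and length trends, and the alternatives for some list genes (up to 4 called per list, CSF3R and BCL6), were added after the values were seen. The fit was also run on counts simulated from its own estimates of spread, without GC trends or effects of replicate number. That run cannot show how the fit behaves where such effects are present. Within groups, counts gave a chi-square per gene of 5.18 to 29.6, far more than counting noise, so each library was counted.

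Genes named are LMO2, the 10 genes, LEPROT, IL6STP1, CSF3R, up to 4 called genes per list taken in order of p in the comparison of both hairpins together, and the 3 genes most correlated with STAT3 and with SOCS3. The genes, lists and rules were chosen with earlier results of these data known. Coordinates and lengths are from GENCODE 29, matched by symbol. Some list genes are not reported here.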

Additional observations from a re-analysis of the deposited data

Results flagged for a closer look

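BCL6, a transcriptional repressor on the list of STAT3 targets, differed between the hairpins by edgeR's direct test, and was the single gene among the 10 genes, the lists and LMO2 to do so with edgeR. DESeq2 called 2 targets lower and 2 higher in that comparison. It was at 27.3, 26.7 and 30.4 CPM in control replicates 1 to 3, 19.3, 17.7 and 21.5 in shLMO2-1, and 29.2, 27.3 and 26.5 in shLMO2-2, so the shLMO2-1 libraries lay below all others. The difference shLMO2-2 minus shLMO2-1 was 0.51 on the log2 scale (SE 0.0973, edgeR adjusted p 0.0401). All 3 shLMO2-2 libraries lay above all shLMO2-1 libraries, as in 8.97% of all genes. The call was lost under 7 of 19 alternatives, each a fit without a library: control replicates 2 or 3, shLMO2-1 replicates 1 or 2, or any shLMO2-2 replicate, with adjusted p up to 0.244.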

How the results depend on the processing

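For 40 values, each of the 10 genes in 4 comparisons, the alternative fits gave 758 values. Of these, 705 lay on the same side of 0 and of the threshold, 21 lost a call, 12 gained a call and 20 took the other sign. Most fits were read for all 10 genes and several comparisons, so these values are not independent. The lost calls include LEPR summed with LEPROT, in each hairpin and in the mean, a sum that is mostly LEPROT. The number of the 10 genes called in shLMO2-1 (2) became 1 at an adjusted p under 0.01 and 4 with DESeq2, and ran from 1 to 3 as libraries were left out, lowest without shLMO2-1 replicate 3. The number in shLMO2-2 (3) became 1 at an adjusted p under 0.01, and ran from 1 to 3 with libraries left out, lowest without any shLMO2-2 replicate. The mean of both (3) ran from 2 to 3 with libraries left out and from 2 to 4 over all alternatives, and the comparison of the hairpins stayed at 0.

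Values that changed sign were all small and uncalled. With GC and length trends removed, IL6ST in shLMO2-1 was 0.035 (−0.074 to 0.042 with libraries left out), OSMR in shLMO2-2 0.0059 (−0.12 to 0.049), and LIFR between the hairpins 0.043 (−0.067 to 0.039), which was 0.0026 under upper-quartile scaling. Between the hairpins LEPR was −0.0064 summed with LEPROT (−0.038 to 0.047 with libraries left out) and STAT3 −0.0016 under total counts (−0.024 to 0.029). The mean of SOCS3 was 0.0042 with limma-voom and ran from −0.13 to 0.11 with libraries left out. The cause of these changes was not tested.

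Replicate numbers were not taken to pair the libraries in the main test, since the labels do not say so, though the values hint at a shared number. Deviations from the group means correlated from −0.0635 to 0.296 between same-numbered libraries, over 0.1 in 6 of 9 pairs. Between libraries of different number they correlated from −0.308 to 0.182. In 13 of 18 comparisons the best match had the same number. What the number stands for was not tested. With the replicate block the counts of genes called rose from 1239 to 2214 in shLMO2-1, 1320 to 2377 in shLMO2-2, 1823 to 3024 in the mean and 113 to 257 between hairpins. Among the 10 genes the block gave 3 calls in shLMO2-1, 3 in shLMO2-2, 4 in the mean and 0 between hairpins, JAK2 being the added gene (adjusted p 0.0251 in shLMO2-1 and 0.0286 in the mean), and the mean of SOCS3 was 0.00018. Total counts moved the split of calls in the mean from 951 higher and 872 lower to 793 and 1284. At under 40 counts per library IL6R limits the precision most.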

Other observations

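LIF, which encodes leukaemia inhibitory factor, the ligand of LIFR and gp130, was chosen here after its values were seen. It was at 24.7, 14.1 and 11.4 CPM in control replicates 1 to 3, 26, 24 and 25.6 in shLMO2-1, and 15.8, 16.7 and 13.9 in shLMO2-2. All 3 shLMO2-1 libraries held more than all 3 shLMO2-2 libraries, as in 9.13% of all genes. The difference of −0.71 (SE 0.221) did not pass edgeR's adjusted test (adjusted p 0.242). Control replicate 1 stood near the shLMO2-1 libraries and the other controls near shLMO2-2. The same control library held the most of 2 further gp130 ligands. CLCF1, a cardiotrophin-like cytokine, was at 7.76 CPM there and at 2.77 and 3.06 in the other controls, and IL6 was at 2.95 beside 1.13 and 0.739.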
